A study of Mus musculus with 16 samples.

Results

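To describe the accessible chromatin that was shared by CAST and PWK alone, the overlapping peaks of 16 islet ATAC-seq samples were merged on chromosomes 1 to 19, and regions were chosen by where peaks had been called. A region was kept if both CAST samples and both PWK samples had a peak in it and the other 12 samples had none. This rule kept 1006 of 358621 regions, or 0.281%, and 1.49% of the 67339 regions that had a peak in the 4 CAST and PWK samples. The presence of peaks in the 16 lists therefore chose these regions. That they were accessible in CAST and PWK and not called elsewhere is the rule and not a result.

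The samples were pancreatic islets of 8 inbred strains, the founders of the Diversity Outbred mice, with 1 female and 1 male sample for each strain. The labels name them 129S1_SvImJ (129), A_J (AJ), C57BL/6J (B6), CAST_EiJ (CAST), NOD_ShiLtJ (NOD), NZO_HlLtJ (NZO), PWK_PhJ (PWK) and WSB_EiJ (WSB), and give no treatment, age or number of animals. The groups used here were the CAST female and male, the PWK female and male, and the 12 samples of the other 6 strains. As a strain had a single sample of each sex, p-values for CAST against PWK or for sex measured only the spread between samples. In this spread, sex, animal and preparation cannot be told apart. P-values for CAST and PWK against the other 6 strains came from 8 strain means. Those p-values measured the spread between strains on each side of that comparison.

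In ATAC-seq, a transposase inserts sequencing adapters into open DNA, so that promoters and enhancers collect reads and appear as peaks. Distal enhancers are bound by transcription factors that recognise short DNA motifs, and a sequence difference between strains can create or remove such a motif. CAST and PWK are wild-derived strains of 2 different subspecies of the house mouse, castaneus and musculus, whereas the classical strains and WSB carry mostly domesticus genomes. Both therefore carry many alleles that the B6 reference genome lacks. Repeats and duplicated gene families also differ in number between subspecies.

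The sequences of 7 regions are shown first because they carry the patterns described below. Each is the 200-base window around the highest summit on the GRCm38 plus strand, unless stated, as RefSeq gives it. This is the sequence of B6, a strain without a peak there, and the CAST and PWK alleles were not used here. In the first group, capitals mark a match to 1 of the 13 motifs searched. These were an intron of Adcy5 at chr16:35255921-35256120, an intron of Cacna1c at chr6:118687393-118687592, the promoter of Plcb4 at chr2:135986870-135987069, an intron of Klhl29 at chr12:5302374-5302573 and an exon of Unc79 at chr12:103070802-103071001. They include strong regions, promoter regions and regions in islet genes, and none of the 5 windows had a near-identical match elsewhere in the reference.
Adcy5: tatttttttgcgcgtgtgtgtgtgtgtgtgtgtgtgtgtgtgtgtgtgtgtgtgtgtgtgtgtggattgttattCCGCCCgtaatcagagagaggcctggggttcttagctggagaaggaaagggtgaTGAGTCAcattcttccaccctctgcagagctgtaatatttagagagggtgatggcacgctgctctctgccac
Cacna1c: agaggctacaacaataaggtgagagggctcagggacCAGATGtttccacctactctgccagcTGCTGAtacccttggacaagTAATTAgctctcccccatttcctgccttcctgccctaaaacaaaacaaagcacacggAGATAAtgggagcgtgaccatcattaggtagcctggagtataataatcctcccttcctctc
Plcb4: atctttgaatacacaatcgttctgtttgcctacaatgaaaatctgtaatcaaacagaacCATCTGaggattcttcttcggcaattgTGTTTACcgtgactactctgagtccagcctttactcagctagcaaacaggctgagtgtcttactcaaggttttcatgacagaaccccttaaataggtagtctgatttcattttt
Klhl29: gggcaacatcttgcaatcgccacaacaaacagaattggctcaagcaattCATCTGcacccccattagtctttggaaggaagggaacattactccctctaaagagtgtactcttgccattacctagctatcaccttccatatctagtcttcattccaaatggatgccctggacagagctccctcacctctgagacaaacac
Unc79: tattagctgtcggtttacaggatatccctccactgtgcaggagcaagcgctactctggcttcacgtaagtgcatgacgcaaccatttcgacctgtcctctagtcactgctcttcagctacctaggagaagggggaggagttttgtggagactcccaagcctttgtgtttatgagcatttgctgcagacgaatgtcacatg
The Adcy5 window held an AP-1 motif (TGANTCA) and a GC box (CCGCCC). The Cacna1c window held an E-box (CAGATG), a MAF motif (TGCTGA), a homeobox motif (TAATTA) and a GATA motif (AGATAA). The Plcb4 window held an E-box on the minus strand and a FOXA motif (TGTTTAC), the Klhl29 window an E-box on the minus strand, and the Unc79 window none of the 13. A match is a run of letters and no evidence of binding.

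In the second group, an intron of Fto at chr8:91431268-91431467 is beside an intron of Sox5 at chr6:143883508-143883707, the latter on the minus strand. Capitals mark the longest run of letters the pair shared, 82 bases. The windows lie on different chromosomes and are shown because they belong to the largest set of alike sequences among the regions.
Fto: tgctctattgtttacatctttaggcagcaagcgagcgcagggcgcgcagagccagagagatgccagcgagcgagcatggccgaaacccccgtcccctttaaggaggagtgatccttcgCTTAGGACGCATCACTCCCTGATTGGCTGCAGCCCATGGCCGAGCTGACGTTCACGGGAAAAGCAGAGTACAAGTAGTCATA
Sox5: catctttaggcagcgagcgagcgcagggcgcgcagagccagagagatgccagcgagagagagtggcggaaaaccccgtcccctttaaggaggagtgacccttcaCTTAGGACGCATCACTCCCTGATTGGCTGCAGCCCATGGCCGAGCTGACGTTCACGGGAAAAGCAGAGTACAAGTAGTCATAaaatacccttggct
Of the Fto window, 94% was masked as repeat in the reference, and of the Sox5 window 98%. The Fto window had 31 other near-identical places in the reference and the Sox5 window 46.

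CAST and PWK had the second most regions of the 28 pairs of strains. The first pair was CAST and WSB with 1163, and CAST and PWK followed with 1006, PWK and WSB with 275, and NZO and WSB with 222. The median pair had 32.5. Together the 28 pairs had 3621 regions, of which CAST and PWK had 27.8%. Alone, CAST had 6279 regions, PWK 3218 and WSB 3541, and the 3 wild-derived strains together had 470 regions that no classical strain had. The counts rest on lists of unequal length, with 77887 peaks on chromosomes 1 to 19 in the shortest (AJ male), 167051 in the longest (WSB female), and 140841 and 134813 in CAST and 121407 and 145886 in PWK (female and male). With the 77887 highest peaks of each sample, 521 regions passed the rule, of which 236 overlapped one of the 1006. With the weaker 50% of each list dropped by significance, 632 passed, of which 147 overlapped one of the 1006.

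**Figure D1:**
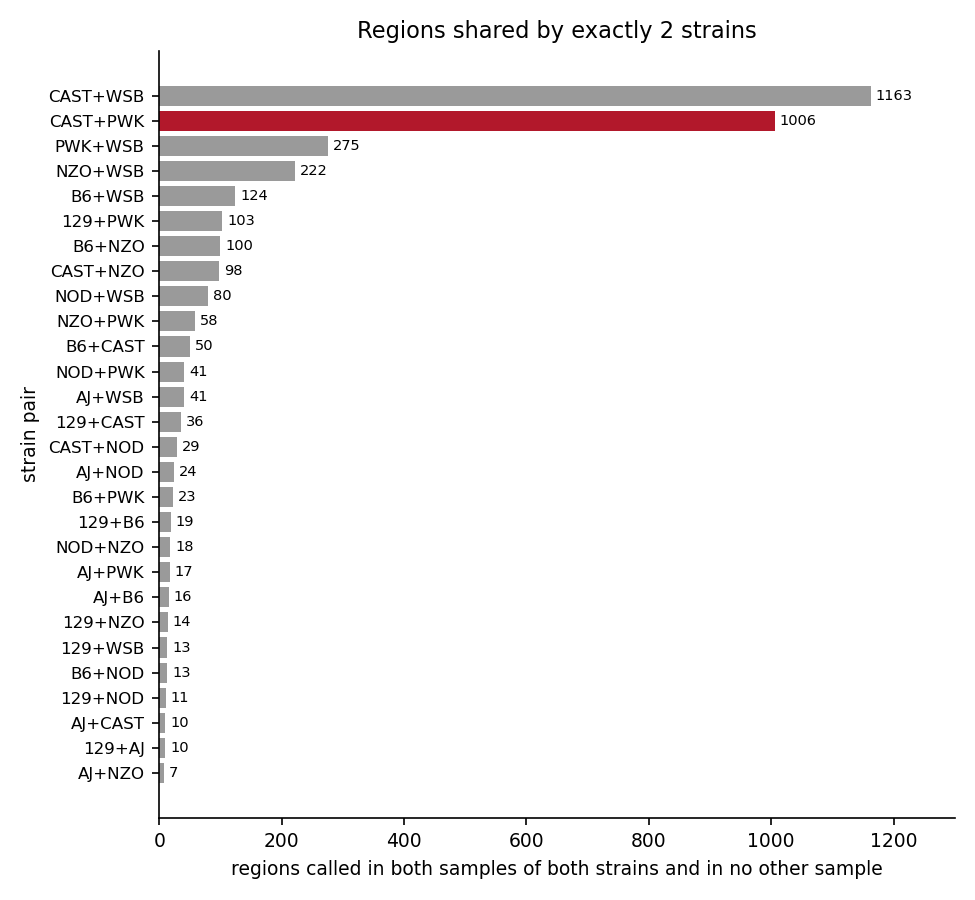
Number of regions (x axis) called in both samples of both strains of a pair and in no other sample, for each of the 28 pairs (y axis). CAST and PWK, in red, had 1006, second to CAST and WSB with 1163, and the third pair had 275.

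The edge of the rule was crowded. A further 677 regions had a peak in the 4 CAST and PWK samples and in 1 of the other 12, most often the WSB female (282) and the NZO male (115). A further 1771 regions had a peak in 3 of the 4 samples and in none of the 12, most often with the PWK male missing (689) or the PWK female (531). Summit signals, divided by the sample's median over the 40930 regions called in all 16 samples, were compared across the edge. In the 677 regions just outside, the median scaled signal was 0.198 in the CAST female, 0.191 in the CAST male, 0.274 in the PWK female and 0.3125 in the PWK male, against 0.2075, 0.191, 0.290 and 0.375 in the 1006 regions. The peak of the 1 other sample had a median of 0.160. In the 1771 regions the medians, where a peak was called, were lower, at 0.151, 0.147, 0.210 and 0.281 in the same order. These values are descriptions, since the calls that chose the regions come from the same signal.

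The 1006 regions were short and weak beside those that all samples shared. Their median width was 432 bases, with a range of 51 to 5821, against 1144 bases for regions called in all 16 samples, and they covered 630 kb. Unscaled, the median summit signal was 22 in the CAST female, 26 in the CAST male, 18 in the PWK female and 12 in the PWK male, whereas the same samples had 106, 136, 62 and 32 in the regions called in all 16. A mean scaled signal above 1, the level of a typical shared region, was reached by 43 of the 1006. In 10 it was above 1 in each of the 4 samples. In most regions, 916 of 1006, no peak of the other 12 samples lay within 500 bases either, and the median distance to the nearest region called in another strain was 2546 bases.

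The strain lists of the study were made from the same reads by an irreproducible discovery rate (IDR) analysis of the female and the male. They are no independent record of these regions. The CAST list overlapped 969 of the 1006 and the PWK list 948, while the lists of the other 6 strains overlapped 0. These overlaps largely follow from the rule, which required peaks in both samples of CAST and PWK and none in the others. At an IDR of 0.05 or less, 409 remained in CAST, 243 in PWK and 137 in both. The Adcy5, Fto, Klhl29, Unc79, Commd10 and Plcb4 regions were among the 137. The Cacna1c region was not. In regions whose window had no other place in the reference, the share with an IDR of 0.05 or less in both strains was 17.7% of 575, and in the other regions 8.12% of 431.

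The Adcy5 region lies in an intron, chr16:35255720-35256199, 14463 bases from the nearest start of a coding transcript of this gene. Adcy5 encodes an adenylyl cyclase, which makes cAMP, a signal that amplifies insulin secretion, and the human gene lies at a locus linked to type 2 diabetes. The summit signal was 73 in the CAST female, 64 in the CAST male, 38 in the PWK female and 13 in the PWK male, which scaled to 0.689, 0.471, 0.613 and 0.406. The strains overlapped on the scaled values, with the PWK female above the CAST male. The difference of PWK from CAST was -0.25 ± 0.33 on the log2 scale (SE, n = 2 samples per strain, limma adjusted p = 0.653). Without centring it was -1.57 (limma adjusted p = 0.0272). The nearest region called in all 16 samples was 106200 bases away, at the promoter of Sec22a (chr16:35362400-35364768), and there the 4 samples did not stand apart from the others (log2 difference 0.08 ± 0.24, limma adjusted p = 0.935).

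The strongest of the 1006 regions was 91 bases wide, chr12:4077482-4077572, 5011 bases from a start of Dnajc27 and 52 bases from the pseudogene Gm48122. Its summit signal was 647 and 629 in the CAST female and male and 188 and 174 in the PWK female and male, with the 4 summits within 17 bases of each other. Scaled, these were 6.10, 4.625, 3.03 and 5.44 times the typical shared region. The nearest region called in another strain was 2732 bases away.

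Several of the strongest regions lay in gene bodies. An exon of Commd10, an endosomal trafficking factor, had scaled signals of 2.15 and 2.91 in CAST and 4.23 and 2.47 in PWK, female first (chr18:46967537-46968932). An intron of Klhl29, a kelch-like adaptor gene, had 2.22 and 2.87 in CAST and 1.97 and 1.375 in PWK (chr12:5301501-5303234). An exon of Unc79, part of the NALCN sodium leak channel complex, had 2.73 and 2.67 in CAST and 1.565 and 1.09 in PWK (chr12:103069717-103071322). At each of these the 4 summits agreed within 28 bases. A region near Gm6871 (chr7:41577400-41578732) had 2.03 and 2.235 in CAST and 2.145 and 1.34 in PWK, and one inside Adgrf5, an adhesion receptor gene, had 1.255 and 1.265 in CAST and 2.42 and 2.16 in PWK (chr17:43453682-43453838).

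At the Klhl29 and Unc79 regions both CAST samples were higher and at the Adgrf5 region both PWK samples. The remaining 4 of the 10 strongest regions had larger gaps between the strains. A pair of neighbouring intron regions of Pcdh9, a protocadherin, were strong in CAST and weaker in PWK. At chr14:93213089-93213953 the scaled signal was 3.27 and 3.14 in CAST and 0.0806 and 0.1875 in PWK, and at chr14:93214264-93216454 it was 3.73 and 3.47 against 0.290 and 0.625. A region 8007 bases from a start of Pramef17 (chr4:143984461-143986362) had 3.85 and 3.40 in CAST and 0.3065 and 0.5625 in PWK. The Sox5 intron region (chr6:143883425-143883911), in the gene of a SOX family transcription factor, went the other way, with 0.632 and 0.5515 in CAST and 2.52 and 3.06 in PWK. The windows of these 4 regions had 46 to 197 other near-identical places in the reference.

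**Figure D2:**
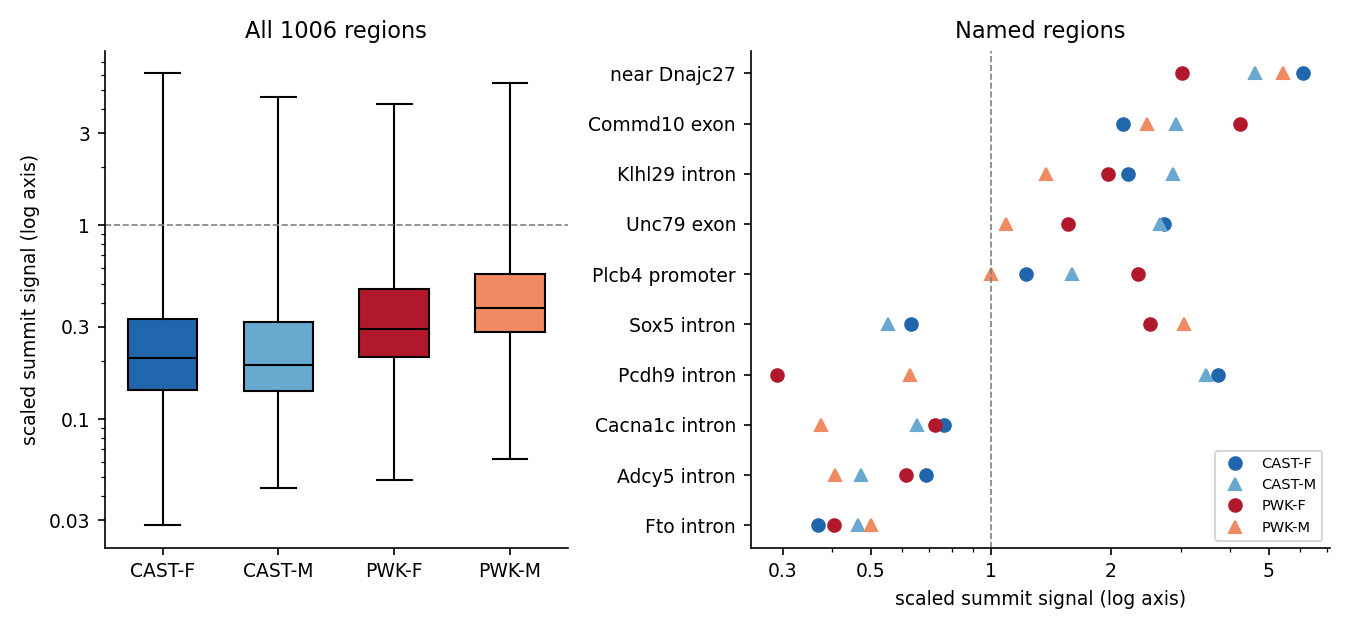
Scaled summit signal (log axis, 1 is the median of regions called in all 16 samples) in the 4 CAST and PWK samples. Left, boxes give the quartiles and median and whiskers the full range of the 1006 regions, whose medians ran from 0.191 in the CAST male to 0.375 in the PWK male. Right, each point is 1 sample at a named region, circles females and triangles males. The Pcdh9 and Sox5 regions separate the strains in opposite directions, whereas Adcy5 and Fto do not separate them.

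CAST and PWK were compared at the regions they share with limma over all 67339 regions called in the 4 samples. The rule required a peak in each of these samples, so the signals are not independent of it, and the counts below describe the regions without showing a difference between the strains. Most of the regions were weak, and at the same summit signal a peak scales higher in PWK, where the median shared summit was 62 and 32, than in CAST, where it was 106 and 136. Of the 1006 regions, 326 (32.4%) differed at a Benjamini-Hochberg adjusted p of 0.05 or less. The background over all 67339 regions was 14.6%. Higher in PWK were 281 (27.9%, background 9.63%) and higher in CAST were 45 (4.47%, background 4.94%). The median log2 difference, PWK minus CAST, was 0.65 over the 1006 and 0.04 over all regions tested, and it was above 0 in 77.1% and 52.6% of them. On the scaled signal, both PWK samples lay above both CAST samples in 576 of the 1006 (57.3%, background 35.6%). Both CAST samples lay above both PWK samples in 120 (11.9%, background 23.5%). On the unscaled signal these counts were 86 and 530, for which no background was computed.

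The sign of the differences between CAST and PWK depended on the scaling. In each scaling used, the median of the 1006 regions was above that of all regions tested. Without centring each sample on its median, 20 regions were called higher in PWK (1.99%, against 0.435% of all regions) and 211 higher in CAST (21.0%, against 43.8%). The log2 median of all regions then moved to -1.27, and that of the 1006 to -0.66. Quantile normalization gave 118 higher in PWK and 40 in CAST (11.7% and 3.98%, against 4.42% and 3.05% of all regions). The deposited mean signal gave 106 and 36 (10.5% and 3.58%, against 3.74% and 3.34%). With the lowest 25% of all regions by mean summit signal dropped, 288 of the 1006 stayed, and their median difference was 0.08. Of these 288, 69 were called higher in PWK (24.0%, against 7.61% of all regions then tested) and 42 higher in CAST (14.6%, against 6.67%). Of the 43 regions with a mean scaled signal above 1, 14 were called higher in PWK and 10 higher in CAST, with a median difference of 0.12. The share called over all regions of that strength was not computed. Leaving out 1 sample gave 142 calls without the CAST female, 146 without the CAST male, 616 without the PWK female and 471 without the PWK male. The share of all regions called then moved too, to 4.2%, 4.51%, 32.8% and 32.5%. In these fits a strain had 1 sample, which was assumed to vary like the samples of the other strain.

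**Figure D3:**
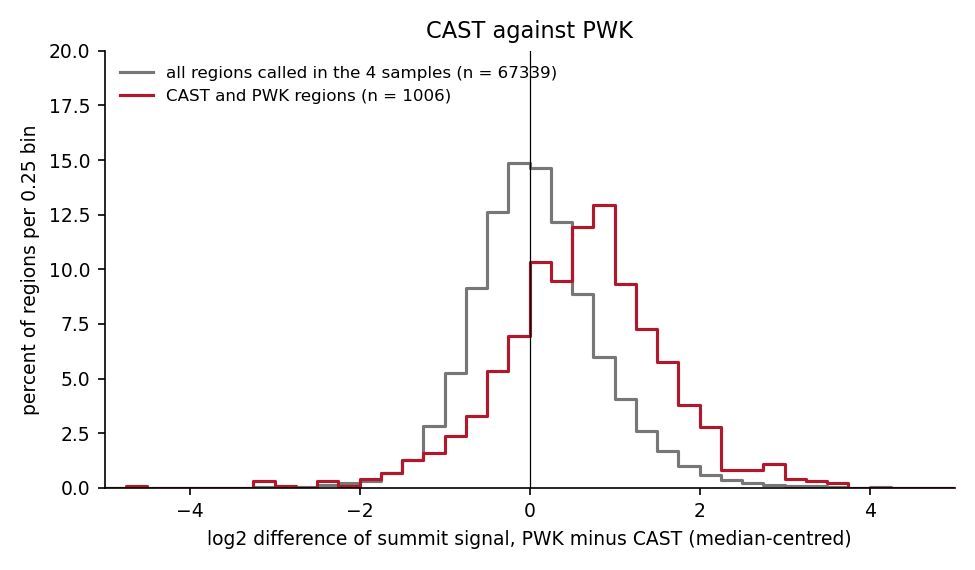
Percent of regions (y axis) by log2 difference of median-centred summit signal, PWK minus CAST (x axis, bins of 0.25). The red line is the 1006 regions called in CAST and PWK alone, with a median of 0.65, and the grey line all 67339 regions called in the 4 samples, with a median of 0.04.

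Among the regions called higher in PWK, the largest difference lay in an intron of Lhfpl3 (chr5:23180765-23181416). Its summit signal was 5 and 17 in CAST and 42 and 71 in PWK, a log2 difference of 3.74 ± 0.52 after centring (SE, limma adjusted p = 0.000954). A region 14058 bases from a start of Pdcd1, the gene of the immune checkpoint receptor PD-1, had 16 and 38 in CAST and 145 and 99 in PWK (chr1:94066611-94067357, 3.55 ± 0.36, limma adjusted p = 0.000151). A gene desert region 505933 bases from Brinp3 had 23 and 23 in CAST and 140 and 71 in PWK (chr1:147003671-147004231, log2 difference 3.38 ± 0.31). An intron of Mansc4 (chr6:147078285-147079799) had 11 and 12 against 49 and 52, and a region 34 bases from the pseudogene Gm48388 (chr12:87979200-87979978) had 18 and 6 against 32 and 58. At these 5 regions, picked by the size of the difference, the samples of the strains did not overlap. The Pdcd1 and Brinp3 windows had no other place in the reference, while the Lhfpl3, Mansc4 and Gm48388 windows had 12, 191 and 188.

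The regions called higher in CAST were led by the Pcdh9 intron region with scaled signals of 3.27 and 3.14 in CAST given above, a log2 difference of -4.58 ± 0.38 (SE, limma adjusted p = 6.96e-05). The Pramef17 region had -3.17 ± 0.35 and the second Pcdh9 region -3.12 ± 0.37. Second in size was an intergenic region 720184 bases from Aga, on chromosome 8 (chr8:52790742-52791543), with summit signals of 199 and 342 in CAST and 15 and 7 in PWK (-3.22 ± 0.31, limma adjusted p = 0.000133). One 26059 bases from Slc34a2, a phosphate transporter gene, had 218 and 281 in CAST and 17 and 9 in PWK (chr5:53010886-53012022, -2.90 ± 0.30). The Aga and Slc34a2 windows matched nowhere else in the reference.

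Regions with a near-identical place elsewhere were called more often than the others. Of the 431 such regions, 177 (41.1%) were called, 164 of them higher in PWK and 13 higher in CAST. Of the 575 regions with no other place found, 149 (25.9%) were called, 117 higher in PWK and 32 higher in CAST. The difference between these groups was not tested. The share called over all fitted regions of either kind was not computed, so the contrast is not shown to be particular to these regions.

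The sex of the samples was compared over the same 4 samples with strain in the model. None of the 1006 regions was called by limma, and 100 of them had an unadjusted p under 0.05. Over all 67339 regions, 6 were called (0.00891%) and 2760 had an unadjusted p under 0.05. This fit left 1 residual degree of freedom, so a difference between the sexes had to be large to pass.

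To ask how the chromatin around the regions differed, the nearest region called in all 16 samples within 50 kb was taken for each, which the rule cannot have picked. There were 650 such neighbours, since some served several regions. CAST and PWK differed from the other 6 strains at 12 of them, or 1.85% (limma on 8 strain means, adjusted p of 0.05 or less). Over all 40930 shared regions, 0.86% differed. Higher in CAST and PWK were 6 (0.923%, background 0.227%) and lower were 6 (0.923%, background 0.633%). The median log2 difference was 0.08 over the neighbours and -0.01 over all shared regions, and 94 of the 650 neighbours had an unadjusted p under 0.05, as had 5034 of the 40930. The count of 12 was small and moved with single samples. It was 5 without the 129 male or the NZO female, 6 without the B6 female, 7 without the AJ female and 18 without the NZO male, where 0.498%, 0.308%, 0.679%, 0.738% and 1.47% of all shared regions were called. It was 23 (16 higher and 7 lower) with the 16 samples and strain as a random block, where 2.24% of all were called.

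The neighbours called higher included a pair of promoters in a gene cluster of chromosome 2. At the promoter of Gm14391 (chr2:175205419-175208320) the scaled signal was 11.2 and 13.7 in CAST and 31.0 and 27.9 in PWK, against 2.17 to 9.27 in the other 12 samples with a median of 3.69. The log2 difference was 2.12 ± 0.44 (SE, limma adjusted p = 0.0447). The promoter of Gm6710 (chr2:175867847-175872599) had 10.9 and 13.7 in CAST and 30.0 and 25.2 in PWK, against 2.38 to 9.39. The nearest regions of the rule lay 1679 and 1738 bases away, and their windows had 21 and 22 other places in the reference. At both promoters the NOD samples were the highest of the 12. The values of the pair were much alike in each sample, so these promoters may not be independent of each other. Other places of the promoters' own sequence are not given here.

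A shared region in an intron of Sgip1, an endocytosis gene (chr4:102855080-102855747), had 0.830 and 0.875 in CAST and 1.5 and 0.875 in PWK, against 0.241 to 0.4545 in the others. A region 978 bases from a start of the noncoding gene 1700029M03Rik (chr1:164961901-164963282) had 1.59 and 1.46 in CAST and 1.27 and 1.375 in PWK, against 0.3605 to 0.828, and its log2 difference was 1.37 ± 0.29. The largest difference among the higher neighbours was 2.19 ± 0.35, near the vomeronasal receptor gene Vmn1r238 (chr18:3113438-3120069, limma adjusted p = 0.0120). In each of these the 4 samples lay above the other 12. The regions were picked by the size of the difference, from which such separation largely follows. Its share over all shared regions was not computed.

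At the neighbours called lower, the signal was low in CAST and PWK beside a region that only they had. An exonic region of which the nearest coding start, 23699 bases away, is that of Arl5a (chr2:52448600-52450336) had 0.311 and 0.213 in CAST and 0.258 and 0.1875 in PWK, against 0.600 to 1.91 in the others. Its log2 difference was -2.48 ± 0.29 (SE, limma adjusted p = 0.00255). An intergenic region near Dsg1c, a desmoglein gene (chr18:20187400-20189118), had 0.2925 to 0.613 in the 4 samples against 1.345 to 3.22, and the region of the rule lay 5681 bases away. A region near Tll1, a tolloid-like protease gene, had a difference of -2.29 ± 0.32 (chr8:64335067-64335819). An intron of Usp25, a deubiquitinase gene (chr16:77041353-77041999), had -1.77 ± 0.30, and a region near Eepd1 (chr9:25773732-25774473) had -1.44 ± 0.30. The 4 samples lay below the other 12 at each of these 5 regions, which were picked in the same way. The calls at Eepd1, Gm6710, 1700029M03Rik and Gm14391 were lost in 14, 12, 9 and 7 of the alternatives run, those at Usp25 and Sgip1 in 3 and 1, and those at Vmn1r238, Arl5a, Dsg1c and Tll1 in 0 of 23. The direction changed in 0 of the alternatives at these 10 regions.

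**Figure D4:**
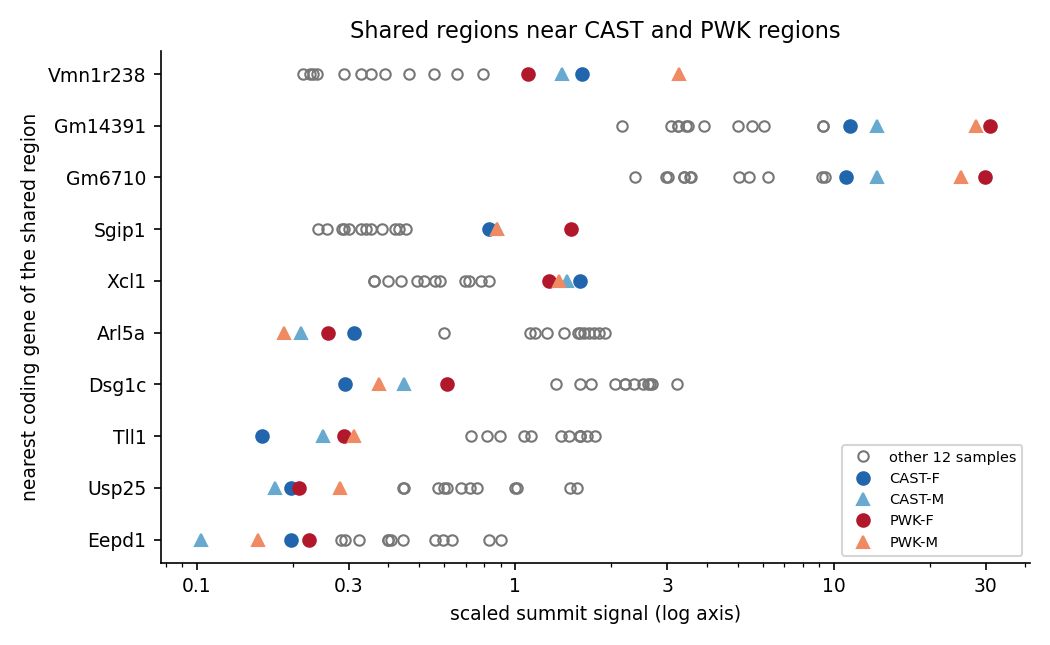
Scaled summit signal (log axis) of the 10 named neighbours, regions called in all 16 samples, each row named by its nearest coding gene. Filled points are the CAST and PWK samples and open circles the other 12. The upper 5 rows were called higher in CAST and PWK and the lower 5 lower. Rows were picked among the called neighbours by the size of the difference, and in them the filled points do not overlap the open circles.

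By annotation, the 1006 regions were close to all 358621 regions. Intergenic were 38.8% (95% Wilson interval 35.8% to 41.8%), intronic 33.9%, exonic 5.67%, and 21.7% (19.2% to 24.3%) lay within 3 kb of a transcript start. Over all regions, 39.9% were intergenic, 34.9% intronic, 3.71% exonic and 21.5% at such starts. Regions called in all 16 samples were at such starts in 41.0% and intergenic in 26.9%. CAST-only regions had 21.96% and 37.9%, PWK-only regions 18.6% and 49.9%, and regions of CAST and WSB 26.0% and 29.6%. The intervals treat regions as independent, which those of one repeat or one cluster are not. Of the 1006, 30 lay within 1 kb of a coding transcript start. The highest of these was that of Plcb4, a phospholipase C gene, with scaled signals of 1.23 and 1.60 in CAST and 2.34 and 1.00 in PWK (chr2:135986657-135987288).

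Further promoter regions were weaker. That of Stx2, a syntaxin of membrane fusion, had 0.717 and 0.684 in CAST and 0.645 and 0.625 in PWK (chr5:128989775-128990123). Dmac2, a complex I assembly gene, had 0.774 and 0.713 against 0.484 and 0.531 (chr7:25621679-25622299), with both CAST samples higher. Ssbp3, a cofactor of LIM-homeodomain transcription factors, had 0.3585 and 0.235 against 1.03 and 0.6875 (chr4:106966497-106966764), with both PWK samples higher. The promoter of Speer4a, of a repeated gene family, had summit signals of 11 and 14 in CAST and 40 and 40 in PWK (chr5:26037884-26039799).

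Few of the regions lay at genes of islet function. In the secretion, cAMP and diabetes lists, the share of genes with a region was above that of all coding genes. Both the cAMP and the diabetes list hold Adcy5, where the study had already shown an intron peak specific to CAST and PWK. Its place in both counts was therefore known beforehand. Of 38 genes of insulin secretion and granules, 4 had a region in the body or within 10 kb (10.5%), of 26 genes of cAMP signalling 3 (11.5%), and of 46 genes at type 2 diabetes loci 4 (8.70%). Of all 20780 coding genes, 553 (2.66%) had one. The genes of these lists were long, with medians of 48.3, 97.2 and 108.4 kb against 17.6 kb over all coding genes, and long genes offer more room. None of the 26 islet transcription factor genes with an annotation had a region, nor did the 5 hormone genes of the other endocrine cells, the 18 acinar genes, the 18 duct, endothelial and stromal genes or the 16 leukocyte genes.

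In the secretion list, the region of Cacna1c, which encodes the pore of an L-type calcium channel, had summit signals of 81 and 89 in CAST and 45 and 12 in PWK (chr6:118687218-118687983). The others were weak. G6pc2, of an islet glucose-6-phosphatase, had 12 and 19 in CAST and 9 and 11 in PWK at an intergenic region (chr2:69233200-69233799), and Robo2, a Slit receptor gene, had 12 and 12 against 19 and 4 (chr16:74355400-74355599). The fourth gene was Ptprn2, with signals of 8 to 12. In the cAMP list, Adcy10, the soluble adenylyl cyclase, had 23 and 15 in CAST and 12 and 12 in PWK (chr1:165559000-165559599), and Prkar2b, a regulatory subunit of protein kinase A, had 21 and 26 against 18 and 5 (chr12:31990600-31990843).

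At the diabetes loci, the intron region of Fto, an RNA demethylase gene, followed Adcy5 with 39 and 63 in CAST and 25 and 16 in PWK (chr8:91431109-91431430), and its 4 scaled values ran from 0.368 to 0.5. A region 1449 bases from a start of Cdc123, a translation factor assembly gene, had 28 and 36 against 15 and 10 (chr2:5796381-5797149). Cdkal1, a tRNA modifying enzyme, had 26 and 24 against 24 and 6 (chr13:29766400-29766695). On the scaled measure the strains overlapped at Fto, Cdc123 and Cdkal1.

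The 434 regions inside coding genes were spread over 397 genes. Obox3, of the oocyte homeobox family on chromosome 7, had 7, and Gm9495, Coro2b, Ank2, Celf2 and Ctnna3 had 3 each. The last 3 are genes of 578 to 1574 kb. By chromosome, the share of regions called in the 4 samples that passed the rule ran from 0.723% on chromosome 19 and 0.735% on chromosome 11 to 2.06% on chromosome 5 and 2.40% on chromosome 7, where 100 of the 1006 lay.

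Some regions came in groups. Within 10 kb of another lay 157 of the 1006 (15.6%), in 63 groups, of which 16 had at least 3 regions. By the same measure 18.9% of CAST-only, 30.1% of PWK-only and 6.79% of CAST and WSB regions lay near another of their kind. The largest held 10 regions over 36.4 kb on chromosome 7 (chr7:59461000-59497384), inside Snhg14, the long noncoding host of the repeated snoRNA genes of the Prader-Willi and Angelman domain. This gene was singled out after its values were seen. In its 668 kb, 19 of the 1006 regions lay, beside 16 CAST-only, 12 PWK-only and 0 CAST and WSB regions. The 19 were within 1 kb of the middle of a snoRNA gene, of which 208 are annotated there. The same share was not computed for the 218 merged regions in this gene, so such nearness is not shown to be particular to the 19. The median scaled signal of the 19 was 0.217 and 0.221 in CAST and 0.371 and 0.594 in PWK. Other groups lay beside Obox2 (5 regions), Gm8871 (5), Trim43a (5), Gm6465 (4) and Zfp971 (4), in multigene families. Of the 63 regions in groups of at least 3, 58 had a near-identical place elsewhere in the reference, so that the copy from which their reads came is uncertain.

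Repeated sequence was common among the regions. A window had another place, at 95% identity over 90% of its length, in 431 of 1006 regions (42.8%), and at least 5 others in 359. The share was 48.4% in PWK-only, 22.3% in CAST-only, 5.76% in CAST and WSB and 2.31% in all-sample regions. At least 50% of the window was masked as repeat in 32.8%, against 2.21% of all-sample regions and 15.3% of all regions. This masked share was 38.4% in PWK-only, 23.35% in CAST-only and 9.29% in CAST and WSB regions. Regions with another place were wider (median 600 against 400 bases), more often intergenic (47.6% against 32.2%), and their 4 summits were farther apart (median range 151 against 71 bases). They were weaker in CAST (median scaled signal 0.160 against 0.236), while PWK had 0.339 and 0.344.

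**Figure D5:**
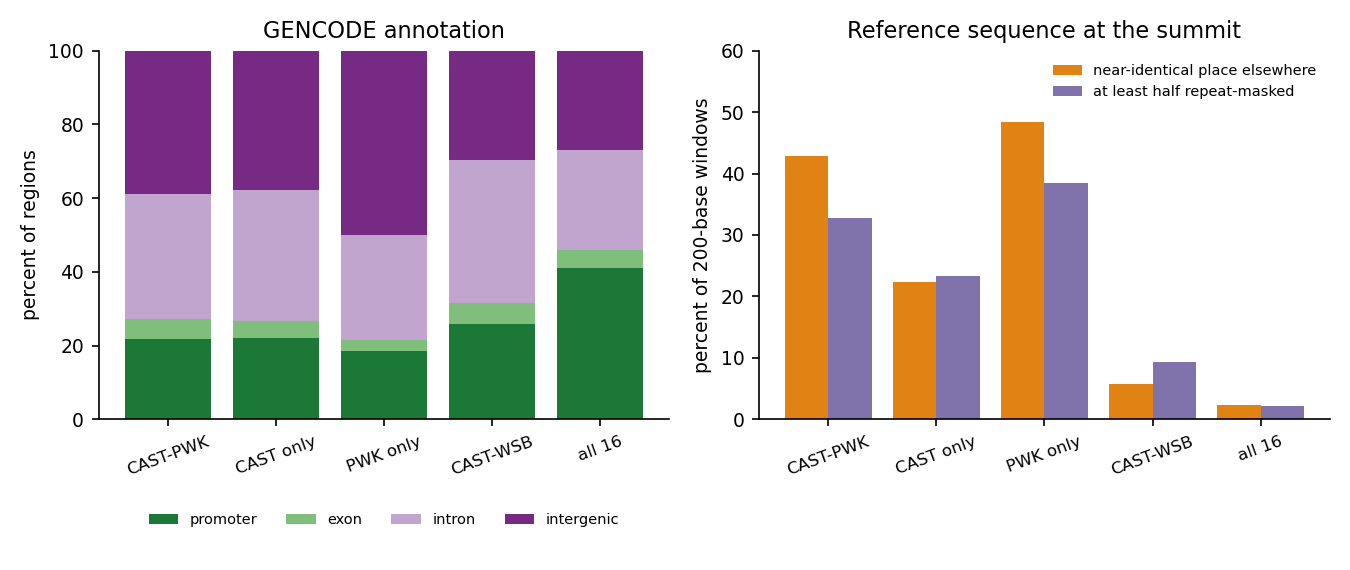
Left, percent of regions (y axis) by GENCODE annotation for regions of CAST and PWK, of CAST only, of PWK only, of CAST and WSB, and of all 16 samples. Right, percent of 200-base summit windows with a near-identical place elsewhere in the reference (orange) or at least 50% masked as repeat (purple). The CAST and PWK regions had 42.8% and 32.8%, and the all-sample regions 2.31% and 2.21%.

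Some of the repeats were the same one. Windows that aligned to each other over at least 100 bases at 85% identity put 209 of the 1006 regions into 54 families, of which 9 had at least 5 members. The largest had 22 regions on 14 chromosomes, the Fto and Sox5 introns printed above among them, and was masked as repeat over a median of 99.25% of the window. Its median scaled signal was 0.231 and 0.254 in CAST and 0.298 and 0.672 in PWK, and 6 of the 22 had an IDR of 0.05 or less in both strains. The second had 18 regions on 10 chromosomes, with 0.127 and 0.114 in CAST and 0.1855 and 0.297 in PWK, and 0 with such an IDR. Another, of 10 regions on 6 chromosomes, had 0.335 and 0.254 in CAST and 0.226 and 0.297 in PWK. Members of a family share sequence and are not independent of each other.

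Base composition and motifs were set beside those of all regions and of all-sample regions. The median G+C content was 46.5%, as in CAST-only regions, against 50% in all-sample regions and 45.5% in all regions. At least 5 CpG were found in 21.6% of windows, against 40.5% of all-sample windows and 13.7% of all windows. Motifs of islet factors were found as follows, with the share of all regions in parentheses, FOXA in 6.16% (4.89% of all regions), the E-box in 21.8% (19.5%), the MAF motif in 21.1% (19.03%), the homeobox motif in 4.77% (6.27%) and the RFX motif (GTTGCCA) in 2.78% (3.26%). The AP-1 motif was in 11.03% of windows, against 21.9% in regions of CAST and WSB and 15.5% of all regions. The GC box was in 4.37% and the CTCF core (AGGGGGC) in 1.99%, against 19.7% and 7.15% of all-sample regions and 4.995% and 2.78% of all regions. Matches were counted on both strands of the B6 sequence, and these shares are descriptions.

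The lists themselves carry the tissue of the labels. Of 12 islet endocrine genes, 11 or 12 had a promoter peak in each sample, of 18 acinar genes 3 to 8, of 18 duct, endothelial and stromal genes 5 to 12, and of 16 leukocyte genes 2 to 4 except in the NZO male, where 11 had one. The summed scaled signal of the leukocyte promoters was 6.84 in the NZO male and 0.4615 to 1.47 in the others, 0.906 to 1.47 in CAST and PWK. The NZO male has no peak in the regions described. Without it 1124 regions passed the rule, with 1527 and 1697 passing without the PWK female and the PWK male. Leaving out any sample removes 1 condition of the rule, which by itself tends to raise the count. Whether differences in cell makeup took part in the results was not tested, and fewer cells of a type and lower accessibility per cell cannot be told apart in bulk islets.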

How the data were processed

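The members, gene lists and tests were chosen with earlier results of these data known. As described in the study, read pairs were trimmed by the authors with cutadapt 2.0, aligned to mm10 (GRCm38) with Bowtie2 2.3.4.1, and freed of mitochondrial reads and, with Picard 2.9.2, of duplicates. Peaks were called for each sample by MOSAiCS, with the FDR set to 0.05. A shift for the transposase cut and a filter on reads with several placements are not given in the sources used here. The deposited sample lists give the summit signal of a peak (whole numbers, not scaled to depth), a mean signal, used as an alternative, and a −log10 p-value, by which the weaker 50% was dropped. The strain lists give a −log10 IDR, deposited for the female and male together, and 16 columns of theirs with signals of single samples were not used. Depth per sample is not in the lists, so no interval that needs it is given. Precision rests on 2 samples per strain, and for CAST and PWK against the other strains on 8 strain means.

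Peaks that shared a base were merged, and a sample's value was its highest summit in the region. Chromosomes X and Y were left out. Scaled signal is the summit signal divided by the sample's median over regions called in all 16 samples, and 0 is given where no peak passed the authors' threshold, which does not show closed chromatin. The fits used log2(summit signal + 1), which understates differences of weak peaks, centred on each sample's median, with limma 3.58.1 in R 4.3.3 and Benjamini-Hochberg adjustment over all regions fitted. CAST was compared with PWK by strain alone, sex with strain in the model, and CAST and PWK with the other strains on 8 strain means. The study tested read counts, and these lists hold none. The limma fits were tested on simulated data. Promoters lie within 3 kb of a GENCODE M21 transcript start, of coding or noncoding genes. Windows were matched to the reference with minimap2 2.31, keeping up to 200 secondary matches, and to each other with blastn 2.17.0. Of the 1006 windows, 1000 found their own place.

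Named regions were the Adcy5 intron, the 10 highest by mean scaled signal, up to 3 per gene list (a further one was named where the list had 4), the 5 highest promoters within 1 kb of a coding start, the 5 largest differences of each direction among called regions and called neighbours, and the 5 coding genes with most regions, with ties. Alternatives were other peak thresholds, merging and overlap rules, normalizations, pseudocounts, filters, windows and the omission of samples.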

Additional observations from a re-analysis of the deposited data

Results flagged for a closer look

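Chromosome X was outside the rule. Of 14723 merged regions there, 66 had a peak in both CAST and both PWK samples and in none of the other 12, or 0.448%, against 0.281% on chromosomes 1 to 19. Males carry a single X, and whether the chromosomes differ was not tested.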

How the results depend on the processing

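The number of regions stayed within 1.5 times of 1006 with peaks joined across gaps, without close peaks of other samples and with the strain lists, of whose 1079 regions 137 overlapped one of the 1006. It was 632 with the weaker 50% of each list dropped and 521 with equal numbers of peaks. It was 409 where a sample counted only if its peaks covered at least 50% of the region. Of the 1006, 142 were covered that far in each of the 4 samples. The rest of the 409 had smaller peaks in other samples. The number was 575 without regions that matched elsewhere, a choice added after the data were seen. Leaving out 1 sample gave 1015 to 1697, but this removes 1 condition of the rule, which by itself tends to raise the count. The promoter share of 21.7% was 9.94% within 1 kb and 18.96% without regions that matched elsewhere. The intergenic share of 38.8% was 43.2%, 34.5%, 31.3%, 32.3% and 32.2% with promoters of 1 kb, without the weaker 50%, with equal numbers, with the strain lists and without regions that matched elsewhere. Of the regions called between CAST and PWK, 326, the count was 158 with quantile normalization, 142 with mean signal, 111 with the lowest 25% dropped and 149 without regions that matched elsewhere, and leaving out 1 sample gave 142 to 616. Sex as a replicate block gave 388 (38.6%, against 17.2% of all 67339 regions). The Adcy5 difference of -0.25 reversed to 0.0066 without the CAST female and 0.0019 without the PWK male, and leaving out 1 sample gave -0.5156 to 0.006628, none past the threshold. No other region named between CAST and PWK changed its call or direction. The 12 called neighbours were 7 with the lowest 25% dropped (1.39%, against 1.02% of all shared regions then tested). Of these, 2 were higher (0.398%, background 0.254%) and 5 lower (0.994%, background 0.763%). The count was 23 with strain as a random block (3.54%, background 2.24%) and 6 within 10 kb (1.86%, background 0.86%). Leaving out 1 sample gave 5 to 18. No region was called for sex under any alternative run, in which 1 to 95 of the 1006 had an unadjusted p under 0.05. Leaving out a sample of that fit was not possible, as no residual degree of freedom remained. The cause of these changes was not tested. Weak peaks in lists of unknown depth limit the precision.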
